A study of Mus musculus with 36 samples.

Results

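Genes of cholesterol synthesis, its control and cholesterol transport were compared among cultured mouse mesenchymal stem cells (MSCs) of 4 tissue origins. The set holds 27 of the 24411 genes listed and was drawn up by name from enzymes of the pathway, members of the SREBP system and sterol transporters. It comprised 8 enzymes from acetyl-CoA to farnesyl and geranylgeranyl diphosphate, 11 enzymes from squalene synthesis onward, 5 genes of the SREBP system and 3 sterol transport genes. RNA-seq was analysed from 3 libraries of femoral bone marrow MSCs (fBM-MSCs), 2 of vertebral bone marrow MSCs (vBM-MSCs), 3 of adipose MSCs (A-MSCs) and 3 of pulmonary MSCs (P-MSCs). The ATAC-seq data consisted of 1 peak list per tissue, made from pooled samples. All cells came from C57BL6/J mice aged 8 weeks, were seeded in MesenCult medium with MesenPure and a Rock inhibitor, which all groups shared, and were used within 3 passages. Adipose and lung tissue was digested with collagenase, whereas bone marrow was released by crushing bone. Between bone marrow and the other tissues, tissue and isolation method therefore cannot be told apart. The bone marrow sites shared a method, as did adipose and lung. The study took the tissues from the same 3 mice, without giving the mouse of each library. RNA of vBM-MSC replicate 3 was not analysed here.

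Cholesterol is built from acetyl-CoA through mevalonate and isoprenoid diphosphates to squalene, which is closed into lanosterol and then trimmed and reduced to cholesterol. The transcription factor SREBP-2 drives most of these enzymes, and the protein SCAP carries it from the endoplasmic reticulum for cleavage when membrane sterol is low, while the INSIG proteins hold SCAP back when sterol is plentiful. Cholesterol taken up in lipoproteins leaves late endosomes through NPC2 and NPC1, and STARD4 moves it between membranes in the cytosol. Because the enzymes answer to the same sterol signal, their mRNAs often move together, and dividing cells need the pathway for new membrane.

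The promoters of 4 of the 7 members that were lower in fBM-MSCs than in vBM-MSCs are shown, those for which a RefSeq window was matched (Stard4, Sqle and Fdft1 had none), together with an intron region of Insig2 that was open at both bone marrow sites. The sequences are those of RefSeq on GRCm38.p6, the mm10 genome, read 5′ to 3′ on the strand of the gene. Each promoter line gives the bases just before the transcription start. Capitals mark CCAAT or its complement, which NF-Y recognizes, and in Hmgcs1 also the run TCACCCCAC, a sterol regulatory element. In the Insig2 line, capitals mark the summit of the fBM-MSC peak with 5 bases on either side. The windows lie at chr13:119690101-119690350 (plus strand), chr13:8885356-8885605 (plus strand), chr5:4104698-4104947 (minus strand), chr8:64733579-64733828 (minus strand) and chr1:121323567-121323767 (minus strand).
Hmgcs1: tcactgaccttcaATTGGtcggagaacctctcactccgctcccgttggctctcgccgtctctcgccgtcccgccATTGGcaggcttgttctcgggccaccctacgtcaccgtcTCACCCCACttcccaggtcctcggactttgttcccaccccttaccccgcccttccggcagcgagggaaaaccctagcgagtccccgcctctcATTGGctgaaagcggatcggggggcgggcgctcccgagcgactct
Idi1: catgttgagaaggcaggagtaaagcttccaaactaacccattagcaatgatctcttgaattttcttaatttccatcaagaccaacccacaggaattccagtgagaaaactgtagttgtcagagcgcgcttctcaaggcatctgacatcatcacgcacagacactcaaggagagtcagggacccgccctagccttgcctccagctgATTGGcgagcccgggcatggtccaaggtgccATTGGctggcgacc
Cyp51: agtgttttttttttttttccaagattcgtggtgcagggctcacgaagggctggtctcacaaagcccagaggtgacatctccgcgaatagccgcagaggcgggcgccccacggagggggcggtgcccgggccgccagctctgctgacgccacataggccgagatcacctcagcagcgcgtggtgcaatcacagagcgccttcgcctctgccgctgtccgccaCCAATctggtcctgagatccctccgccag
Msmo1: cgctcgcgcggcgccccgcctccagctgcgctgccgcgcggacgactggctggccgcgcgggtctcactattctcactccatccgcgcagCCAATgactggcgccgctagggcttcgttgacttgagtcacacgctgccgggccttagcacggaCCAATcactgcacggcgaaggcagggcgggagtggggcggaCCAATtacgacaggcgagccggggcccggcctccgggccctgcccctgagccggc
Insig2 intron region: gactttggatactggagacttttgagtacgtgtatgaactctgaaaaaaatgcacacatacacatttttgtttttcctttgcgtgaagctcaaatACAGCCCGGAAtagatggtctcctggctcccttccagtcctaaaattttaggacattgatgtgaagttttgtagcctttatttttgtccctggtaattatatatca

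The promoter letters shared by the members were counted in RefSeq windows of 250 bases before and 50 bases after the start, on both strands. A window was matched for 22 of the 27 members. The letters CCAAT were found in 20 of these 22 (90.9%), against 43% of the 9515 tested genes with a window and 41.1% of all 27025 genes with one. The 2 members without them were Acat2 and Scap. Of the 44 CCAAT boxes, 41 ended before the start, and 13 members had 2 or more. The GC box GGGCGG was also found in 20 members, but 70% of the tested genes had it. The E-box CACGTG was found in 5 members, Hsd17b7, Sc5d, Dhcr7, Scap and Insig1, which is 22.7% against 11.9% of the tested genes. The sterol regulatory element TCACNCCAC was found in 1 member, Hmgcs1, at -137 to -129 from the start, and in 1.42% of the tested genes. The full sterol regulatory element of 10 letters, which contains this run, was found in 0 members and in 0.0631% of the tested genes. These are letters in a window and not measured binding. None of the other motifs is part of another.

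Library depth ranged from 19569649 to 40517736 estimated reads, the shallowest being fBM-MSC replicate 1. All 27 members passed the filter on low counts, beside 12509 genes tested in all. The MSC markers Itgb1, Cd44, Ly6a and Vcam1 summed to 983 TPM or more in every library (TPM is a level scaled for transcript length and to the same sum in every library). This sum was 1430 to 1820 TPM in fBM-MSCs and 2270 to 2340 TPM in vBM-MSCs, without overlap. It was 983 to 1120 TPM in A-MSCs and 1380 to 1480 TPM in P-MSCs. Of 10 macrophage markers, Ptprc, Adgre1, Mrc1, Tyrobp and C1qa stayed under 1 TPM everywhere. The 10 summed to 45.2 to 71.9 TPM in fBM-MSCs and 24.4 to 54 in vBM-MSCs, against 18.6 to 27.7 in A-MSCs and 15.1 to 17.1 in P-MSCs, so the vBM-MSC and A-MSC ranges overlapped. The largest part of the bone marrow sum was Lyz2, at 19.8 to 38.6 TPM there and at 1.76 to 12.8 TPM elsewhere. Cd68 was highest in fBM-MSCs, at 12.3 to 18.5 TPM against 0.87 to 2.72 in vBM-MSCs and 3.47 to 7.38 in A-MSCs and P-MSCs. Fcer1g was at 4.70 to 19.8 TPM in fBM-MSCs, 0 to 8.21 in vBM-MSCs and 0 in the other libraries. Csf1r ran the other way, at 0.60 to 1.16 TPM in bone marrow against 5.46 to 6.56 in A-MSCs and 2.21 to 2.76 in P-MSCs, and Cd14 was highest in P-MSCs, at 4.69 to 5.60 TPM. Summed adipocyte markers, mostly Fabp4, were at 43.6 to 165 TPM in A-MSCs, 22 to 64.2 TPM in bone marrow and 2.68 to 3.84 TPM in P-MSCs. Summed markers of mesothelium were lower in bone marrow, at 1.84 to 12.3 TPM against 46.6 to 62.9 in the other libraries. In P-MSCs that sum was nearly all Krt19 (51.7 to 59.8 TPM), with Wt1 at 0 and Msln at most 2.94 TPM, whereas A-MSCs held all 4 markers. Muscle markers, mostly Acta1, were also lower in bone marrow, at 9.24 to 20.5 TPM in fBM-MSCs and 55.7 to 496 TPM in vBM-MSCs. They were at 716 to 1270 TPM in the other libraries, and Myod1 and Myog were at 0 in every library. Of 5 epithelial markers, 4 stayed under 1 TPM everywhere, and endothelial markers summed to at most 1.19 TPM in bone marrow and 55.5 TPM elsewhere. In bulk RNA, fewer cells of one type and less RNA per cell cannot be told apart, and the part of these markers in the results was not tested.

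Every member was expressed in every library, but at levels that differed widely within the pathway. Among the enzymes, Msmo1, which removes methyl groups from the sterol ring, had the highest mean over the 11 libraries (221 TPM, range 167 to 304). Fdps, which makes farnesyl diphosphate, followed at 190 TPM (144 to 241), and Sc5d, a late sterol desaturase, at 100.3 TPM (71.5 to 121). The lowest means were those of Lss, the cyclase that forms lanosterol (6.08 TPM, 5.39 to 7.36), and Dhcr7, a last-step reductase (8.22 TPM, 6.24 to 10.6). Lss did not differ among the tissues (adjusted p = 0.552, edgeR quasi-likelihood test over 4 tissues).

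**Figure D1:**
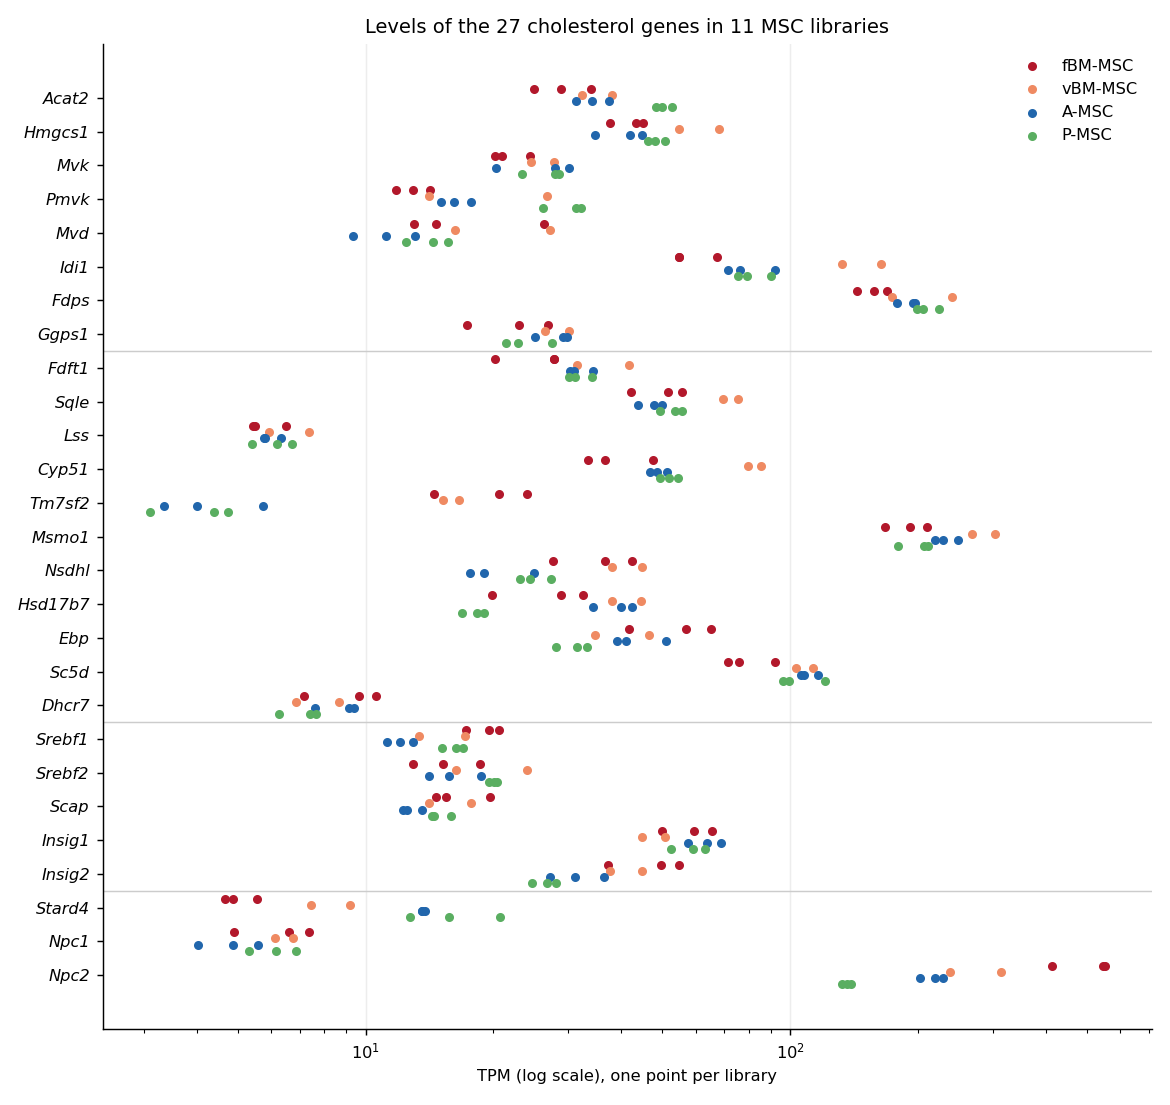
Level of each of the 27 members in each library on a log TPM axis, 1 point per library coloured by tissue and grouped by role (mevalonate branch, sterol branch, SREBP system and transport, from top to bottom). The fBM-MSC and vBM-MSC points of Idi1 and Cyp51 lie apart, Tm7sf2 separates bone marrow from the other tissues, and Npc2 is highest in fBM-MSCs.

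Across the 4 tissues, 18 of the 27 members differed at an adjusted p under 0.05. The share over all tested genes was 60.6%, close to that of the members. The 18 comprised 14 of the 19 enzymes, Srebf1 and Insig2 of the SREBP system, and Stard4 and Npc2. The 5 enzymes that did not pass were Mvk, Mvd, Ggps1, Lss and Dhcr7.

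Between the 2 bone marrow sites, 6 of the 19 synthesis enzymes were higher in vBM-MSCs, 0 were higher in fBM-MSCs and 13 did not pass. Of the 27 members, 8 differed between fBM-MSCs and vBM-MSCs, against 12.8% of all tested genes. Lower in fBM-MSCs were 7 of them (7.56% of all genes were lower), namely Idi1, Cyp51, Stard4, Msmo1, Hmgcs1, Sqle and Fdft1. Higher in fBM-MSCs was 1, Npc2 (5.24% of all genes were higher). The median log2 fold change of fBM-MSCs over vBM-MSCs was -0.35 over the 19 enzymes and 0.02 over all tested genes. The sum of the 19 enzymes ran from 881 to 931 TPM in fBM-MSCs and from 1245 to 1331 TPM in vBM-MSCs. In A-MSCs it ran from 964 to 1073 TPM and in P-MSCs from 968 to 1049 TPM. In this TPM sum the sites of bone marrow thus lay on either side of the other tissues. In the edgeR fit, 4 enzymes were higher and 3 lower in fBM-MSCs than in P-MSCs (24.7% and 23% of all genes). The median log2 fold change of the enzymes was 0.02 there, so fBM-MSCs were not below P-MSCs in the fit. Against A-MSCs, 2 enzymes were higher and 7 lower (20.6% and 20.3% of all genes), with a median of -0.34.

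Idi1, the isomerase that makes dimethylallyl diphosphate (chr13:8885606-8892396), had the largest difference. It was at 54.9, 67.3 and 54.6 TPM in fBM-MSCs and at 164 and 133 TPM in vBM-MSCs. The A-MSC libraries had 92.3, 71.4 and 76.3 TPM and the P-MSC libraries 79.3, 75.5 and 90.1 TPM. Both vBM-MSC libraries were above all others, and the fBM-MSC libraries were below all others. The log2 fold change of fBM-MSCs over vBM-MSCs was -1.31 (SE 0.16, adjusted p = 0.000475, edgeR). vBM-MSCs also exceeded A-MSCs by 0.79 (SE 0.16, adjusted p = 0.00414) and P-MSCs by 0.96 (SE 0.16, adjusted p = 0.000665) on the log2 scale.

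Cyp51, the demethylase that acts on lanosterol (chr5:4080674-4104697), had the same order of tissues. It was at 33.5, 36.7 and 47.5 TPM in fBM-MSCs and at 79.5 and 85.5 TPM in vBM-MSCs, with no other library above 54.5 TPM. The difference of fBM-MSCs from vBM-MSCs was -1.03 (SE 0.14, adjusted p = 0.000893). Against A-MSCs, vBM-MSCs were higher by 0.64 (SE 0.14, adjusted p = 0.00612), and against P-MSCs by 0.75 (SE 0.14, adjusted p = 0.00135).

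Sqle, the squalene epoxidase that catalyses a rate-limiting step, showed a smaller difference in the same direction. The vBM-MSC libraries held 69.6 and 75.4 TPM, and the other libraries lay between 42.2 and 55.7 TPM. The log2 fold change of fBM-MSCs over vBM-MSCs was -0.50 (SE 0.12, adjusted p = 0.0217). Hmgcs1, which makes HMG-CoA, was at 54.8 and 67.9 TPM in vBM-MSCs and between 34.8 and 50.7 TPM in the others. Its difference was -0.50 (SE 0.12, adjusted p = 0.021), and that of Msmo1, at 304 and 268 TPM in vBM-MSCs against 210, 192 and 167 TPM in fBM-MSCs, was -0.55 (SE 0.15, adjusted p = 0.0296). In all 3 genes both vBM-MSC libraries were the highest of the 11.

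By mean TPM, vBM-MSCs were the highest tissue for 11 of the 19 enzymes and the lowest for 0, whereas they were highest for 23% and lowest for 17.4% of all tested genes. fBM-MSCs were the highest tissue for 3 of the 19 and the lowest for 11, against 26.1% and 27.4% of all genes. A-MSCs were highest for 1 and lowest for 4 (12.3% and 32.1% of all genes), and P-MSCs were highest for 4 and lowest for 4 (38.6% and 23.1% of all genes). For Srebf2, the SREBP-2 gene, the bone marrow sites did not differ (-0.31, SE 0.17, adjusted p = 0.266), and none of the 5 SREBP system genes did. The limits of this comparison are the 2 vBM-MSC libraries and the weaker calls. The count of 8 fell to 3 without vBM-MSC replicate 1, to 4 without fBM-MSC replicate 2, to 5 without vBM-MSC replicate 2 and to 2, Idi1 and Cyp51, in a fit of the bone marrow libraries alone. The calls of Idi1 and Cyp51 were kept under each of the 17 alternatives run. Fdft1 (-0.49, SE 0.14, adjusted p = 0.0427), the squalene synthase gene, lost its call under 13 of them, including leaving out each library in turn except fBM-MSC replicate 3. Hmgcs1 lost its call without either vBM-MSC library, Sqle without fBM-MSC replicate 2 or vBM-MSC replicate 1, and Msmo1 without fBM-MSC replicate 2, fBM-MSC replicate 3 or vBM-MSC replicate 1.

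**Figure D2:**
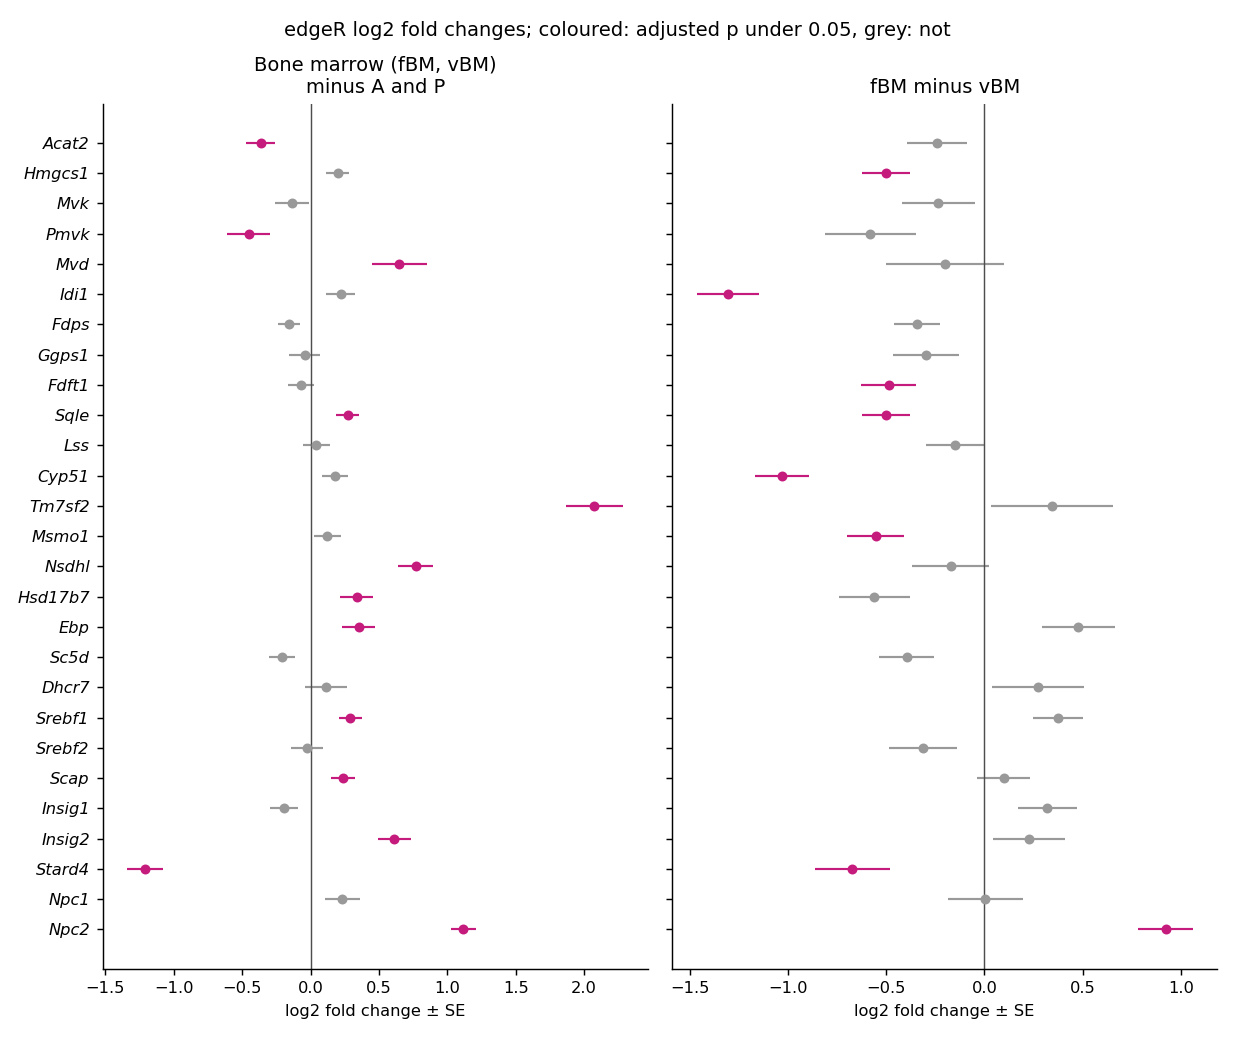
Log2 fold changes from edgeR for the 27 members, with SE derived from the F statistic of the test. Bone marrow over non-bone marrow MSCs is on the left and fBM-MSCs over vBM-MSCs on the right. Members are coloured where the adjusted p from edgeR was under 0.05. On the left Tm7sf2 lies at 2.08 and Stard4 at -1.21, and on the right 7 of the 8 coloured members lie below 0.

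Bone marrow MSCs as a group differed from A-MSCs and P-MSCs in 13 of the 27 members, against 47.2% of all tested genes, so the share of the members was near that of all genes. Of these, 10 were higher in bone marrow (24.8% of all genes were) and 3 were lower (22.4% of all genes were). Without vBM-MSC replicate 2, 6 were higher and 3 lower. The median log2 fold change was 0.18 over the members and 0.03 over all genes. The higher members were Tm7sf2, Npc2, Nsdhl, Mvd, Insig2, Ebp, Hsd17b7, Srebf1, Sqle and Scap, and the lower ones Stard4, Pmvk and Acat2. Only 3 of the 13, Tm7sf2, Nsdhl and Stard4, also passed in the same direction in each of the 4 comparisons of a bone marrow site with A-MSCs or P-MSCs, which is 11.1% of the members against 12.1% of all tested genes. Npc2 and Insig2 passed in all but that of vBM-MSCs with A-MSCs. Sqle passed only for vBM-MSCs and Srebf1 only for fBM-MSCs. The Srebf1 call against P-MSCs was lost in 4 of 16 alternatives, with limma on log2(TPM + 1) and without fBM-MSC replicate 3 or P-MSC replicate 2 or 3. Hsd17b7 passed as higher only against P-MSCs. Against A-MSCs it was lower in fBM-MSCs (-0.595, SE 0.16, adjusted p = 0.0134 in edgeR), a call lost without A-MSC replicate 3. Ebp, Pmvk and Acat2 passed only for fBM-MSCs against P-MSCs, and Mvd and Scap in none of the 4. In 4 members, Tm7sf2, Nsdhl, Insig2 and Npc2, all 5 bone marrow libraries lay above all 6 others in TPM, as they did in 10.4% of all tested genes. In 1 member, Stard4, they lay below all others, as in 9.51% of all genes. The tissues also differed in proliferation genes, of which 19 of 19 were lower in bone marrow, with a median log2 fold change of -2.69. Their summed level was 446 to 531 TPM in the bone marrow libraries, 1360 to 1400 TPM in A-MSCs and 2440 to 2630 TPM in P-MSCs, and the part of proliferation in the members' differences was not tested.

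Tm7sf2, which encodes a sterol C14 reductase (chr19:6062821-6067850), had the largest difference of the set. It was at 24.0, 20.6 and 14.5 TPM in fBM-MSCs and at 16.6 and 15.2 TPM in vBM-MSCs. The A-MSC libraries had 3.35, 4.0 and 5.74 TPM and the P-MSC libraries 3.11, 4.73 and 4.40 TPM. The lowest bone marrow library was thus more than double the highest of the others. The log2 fold change was 2.08 (SE 0.21, adjusted p = 1.33e-05), and A-MSCs did not differ from P-MSCs (0.30, SE 0.28, adjusted p = 0.441). The first exon of Tm7sf2 overlaps the last of Vps51 by a few bases on the same strand, and reads there could belong to either.

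Lbr, the lamin B receptor, carries the same reductase activity and was looked at after these values were seen, since it is not a member of the set. It was at 9.93, 10.5 and 12.1 TPM in fBM-MSCs and at 15.8 and 17.5 TPM in vBM-MSCs. It rose to 28.9, 27.8 and 26.6 TPM in A-MSCs and to 41.9, 41.5 and 42.8 TPM in P-MSCs, with no overlap between any of the tissues. The log2 fold change of bone marrow over the others was -1.34 (SE 0.08, adjusted p = 2.41e-07). Tm7sf2 made up 46.5% to 70.7% of the summed TPM of both reductase genes in the bone marrow libraries and 6.91% to 17.8% in the others. The sum itself was 26.6 to 33.9 TPM in bone marrow, 31.8 to 32.3 TPM in A-MSCs and 45.0 to 47.2 TPM in P-MSCs, so the bone marrow and A-MSC libraries overlapped in the sum while differing in its make-up.

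The following steps remove the methyl groups at carbon 4 and place the remaining double bond. Nsdhl, a dehydrogenase of the demethylation complex (chrX:72918521-72958528), was at 42.4, 36.7 and 27.7 TPM in fBM-MSCs and at 38.1 and 44.9 TPM in vBM-MSCs. It was at 24.97, 17.6 and 19.0 TPM in A-MSCs and at 27.3, 23.1 and 24.4 TPM in P-MSCs. The bone marrow libraries were all higher, fBM-MSC replicate 3 only just, and the log2 fold change was 0.77 (SE 0.13, adjusted p = 0.000552). Hsd17b7, the ketoreductase of the complex (chr1:169949537-169969205), was instead set apart by P-MSCs. It was at 19.0, 18.3 and 16.9 TPM in P-MSCs against 40.1, 34.4 and 42.5 TPM in A-MSCs, 38.0 and 44.5 TPM in vBM-MSCs and 32.5, 28.9 and 19.9 TPM in fBM-MSCs. All P-MSC libraries were below all others. A-MSCs exceeded P-MSCs by 1.30 (SE 0.17, adjusted p = 0.000282) and vBM-MSCs exceeded P-MSCs by 1.27 (SE 0.18, adjusted p = 0.000258) on the log2 scale. Its call between bone marrow and the others (0.34, SE 0.12, adjusted p = 0.0407) was lost in 11 of 16 alternatives, among them leaving out any library but fBM-MSC replicate 3 or A-MSC replicate 3.

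Ebp, the isomerase that shifts the ring double bond, was also lowest in P-MSCs, at 33.2, 28.0 and 31.4 TPM. The fBM-MSC libraries had 41.7, 56.9 and 65.0 TPM, vBM-MSCs 34.7 and 46.4 TPM and A-MSCs 51.1, 39.0 and 41.1 TPM. fBM-MSCs exceeded P-MSCs by 0.94 (SE 0.17, adjusted p = 0.00069) and A-MSCs exceeded them by 0.70 (SE 0.16, adjusted p = 0.00836). The difference of bone marrow from the others was 0.35 (SE 0.12, adjusted p = 0.0333) and was lost in 8 of 16 alternatives, among them without replicate 2 of any tissue or replicate 3 of fBM-MSCs, A-MSCs or P-MSCs.

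In the mevalonate branch, Pmvk, the phosphomevalonate kinase, and Acat2, the cytosolic thiolase that opens the pathway, were highest in P-MSCs. Acat2 was at 52.7, 49.8 and 48.3 TPM in P-MSCs and between 24.9 and 38.1 TPM in the other 8 libraries. The log2 fold change of fBM-MSCs over P-MSCs was -0.66 (SE 0.14, adjusted p = 0.00215). Pmvk was at 31.3, 32.2 and 26.2 TPM in P-MSCs, at 15.03, 16.1 and 17.7 TPM in A-MSCs and at 14.2, 11.8 and 13.0 TPM in fBM-MSCs. The vBM-MSC libraries disagreed, at 14.1 and 26.7 TPM, the second within the P-MSC range. For Pmvk, the difference of fBM-MSCs from P-MSCs was -1.08 (SE 0.21, adjusted p = 0.00142). The bone marrow comparison gave -0.45 for Pmvk (SE 0.16, adjusted p = 0.034), lost in 7 of 16 alternatives (without fBM-MSC replicate 2, vBM-MSC replicate 1, A-MSC replicate 2 or 3 or P-MSC replicate 1 or 2, and with the replicate number as a block), and -0.36 for Acat2 (SE 0.10, adjusted p = 0.013), lost without vBM-MSC replicate 2 (adjusted p = 0.0596).

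Mvd, the decarboxylase that follows Pmvk, had uneven bone marrow libraries. It was at 14.7, 13.0 and 26.4 TPM in fBM-MSCs and at 16.3 and 27.2 TPM in vBM-MSCs, against 9.34 to 15.6 TPM in the other 6 libraries. The highest values were those of fBM-MSC replicate 3 and vBM-MSC replicate 2, and the other bone marrow libraries lay within or next to the range of the rest. Its difference of 0.65 (SE 0.20, adjusted p = 0.0198) was lost without vBM-MSC replicate 2 (0.50, adjusted p = 0.0939). Mvk and Ggps1, which feed the same branch and its geranylgeranyl side arm, passed no test.

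In the SREBP system, Insig2 and Insig1, which encode the related retention proteins, differed in their pattern. Insig2 (chr1:121304353-121332589) was at 37.3, 49.5 and 54.8 TPM in fBM-MSCs and at 44.7 and 37.7 TPM in vBM-MSCs. It was at 31.2, 27.2 and 36.5 TPM in A-MSCs and at 24.6, 28.2 and 26.8 TPM in P-MSCs. All bone marrow libraries lay above all others, the closest pair by less than 1 TPM, and the log2 fold change was 0.61 (SE 0.12, adjusted p = 0.00159). The call of fBM-MSCs against A-MSCs (0.50, SE 0.16, adjusted p = 0.0293) was lost in 4 of 16 alternatives. These were fits without fBM-MSC replicate 2 or 3 or without A-MSC replicate 1 or 2. vBM-MSCs alone did not pass against A-MSCs (0.28, adjusted p = 0.299), and their call against P-MSCs (0.72, adjusted p = 0.00837) was lost without vBM-MSC replicate 1 (adjusted p = 0.0978). Insig1, which is itself a target of SREBP, ranged from 44.9 to 68.8 TPM, with the vBM-MSC libraries below those of A-MSCs and P-MSCs and overlap elsewhere. It did not pass in the same comparison (-0.19, SE 0.10, adjusted p = 0.136), and its single call was that between vBM-MSCs and A-MSCs (-0.51, SE 0.15, adjusted p = 0.0295), lost without vBM-MSC replicate 2, A-MSC replicate 1 or A-MSC replicate 3. Insig1 per Insig2 was 1.13 to 1.34 in the bone marrow libraries and 1.86 to 2.40 in the others, as a ratio of TPM chosen after these values were seen. Whether the fold changes of these genes differed was not tested.

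Srebf1, the gene of SREBP-1, was highest in fBM-MSCs, at 17.3, 19.5 and 20.6 TPM, and lowest in A-MSCs, at 11.2, 12.9 and 12.1 TPM. The difference between these tissues was 0.59 (SE 0.11, adjusted p = 0.00162). In the bone marrow comparison it was 0.29 (SE 0.08, adjusted p = 0.0135), lost without vBM-MSC replicate 2 (adjusted p = 0.0518), and vBM-MSCs alone passed against neither A-MSCs (0.22, adjusted p = 0.227) nor P-MSCs (-0.01, adjusted p = 0.964). Scap, the escort protein, differed by 0.24 (SE 0.09, adjusted p = 0.0468), lost in 10 of 16 alternatives, among them without fBM-MSC replicate 2, vBM-MSC replicate 2, A-MSC replicate 1 or 2, or any P-MSC library. Srebf2 lay between 12.9 and 24.0 TPM and passed in none of the comparisons.

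Among the transport genes, Npc2, a soluble cholesterol carrier of late endosomes, formed a graded series of tissues (chr12:84754559-84773112). It was at 551, 546 and 415 TPM in fBM-MSCs and at 238 and 313 TPM in vBM-MSCs. It was at 229, 202 and 220 TPM in A-MSCs and at 133, 139 and 136 TPM in P-MSCs. The 4 tissues did not overlap, and each step passed the test except that from vBM-MSCs to A-MSCs (0.22, SE 0.13, adjusted p = 0.25). fBM-MSCs exceeded vBM-MSCs by 0.92 (SE 0.14, adjusted p = 0.00182) (adjusted p = 0.0695 in a fit of the bone marrow libraries alone). They exceeded P-MSCs by 2.01 (SE 0.12, adjusted p = 6.03e-07), and A-MSCs exceeded P-MSCs by 0.87 (SE 0.12, adjusted p = 0.000469). Npc1, the membrane protein that receives cholesterol from Npc2, was at 4.04 to 7.37 TPM, with overlap between all tissues except vBM-MSCs and A-MSCs. It passed in none of the comparisons, with a bone marrow difference of 0.23 (SE 0.13, adjusted p = 0.155). Of the macrophage markers given above, Cd68 was higher in every fBM-MSC library than in all others, as Npc2 was, and Fcer1g reached its highest values in fBM-MSCs, overlapping vBM-MSCs. Lyz2 was higher in every bone marrow library than elsewhere, whereas Csf1r was lowest in bone marrow and Cd14 highest in P-MSCs. Their part in the Npc2 levels was not tested.

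Stard4, the cytosolic sterol carrier, had the reverse order. It was at 4.66, 4.87 and 5.56 TPM in fBM-MSCs and at 7.43 and 9.17 TPM in vBM-MSCs. The A-MSC libraries had 13.6, 13.6 and 13.8 TPM and the P-MSC libraries 15.7, 12.7 and 20.7 TPM. The bone marrow libraries were all lower, with fBM-MSCs the lowest, while A-MSCs and P-MSCs overlapped. The log2 fold change of bone marrow over the others was -1.21 (SE 0.13, adjusted p = 2.29e-05). That of fBM-MSCs over vBM-MSCs was -0.67 (SE 0.19, adjusted p = 0.04), which was lost in 9 of 17 alternatives, among them without fBM-MSC replicate 1 or 2, either vBM-MSC library, any A-MSC library or P-MSC replicate 1.

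**Figure D3:**
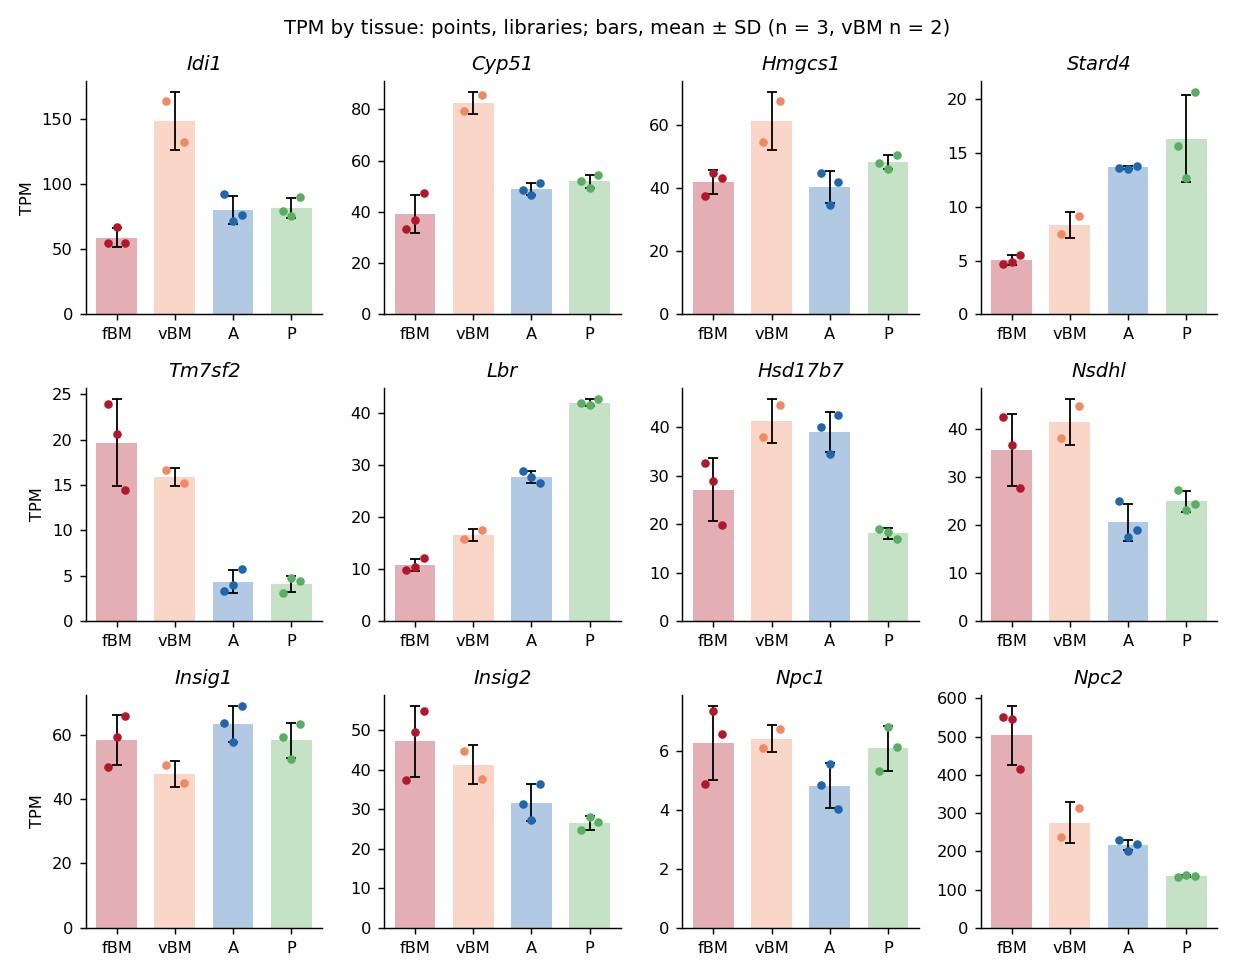
TPM of 11 members and of Lbr by tissue, with points for libraries and bars for the mean with SD (3 libraries, 2 in vBM-MSCs). Idi1, Cyp51 and Hmgcs1 are highest in vBM-MSCs, Tm7sf2 and Lbr run in opposite directions, Hsd17b7 is lowest in P-MSCs, and Npc2 falls from fBM-MSCs to P-MSCs while Npc1 stays between 4.04 and 7.37 TPM.

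The remaining comparisons of single tissues share libraries with those above and are given by their counts. Between fBM-MSCs and A-MSCs, 13 members differed (40.9% of all genes), 5 higher in fBM-MSCs and 8 lower (20.6% and 20.3% of all genes). Without A-MSC replicate 3 the split was 5 higher and 4 lower, and with limma on log2(TPM + 1) it was 5 and 5. The lower ones included Sc5d (-0.53, SE 0.13, adjusted p = 0.00598) and Fdps (-0.37, SE 0.10, adjusted p = 0.016), the latter lost without A-MSC replicate 3 (adjusted p = 0.0782). Between fBM-MSCs and P-MSCs, 11 differed (47.7% of all genes), 7 higher and 4 lower (24.7% and 23% of all genes), and with limma on log2(TPM + 1) the balance turned to 6 higher and 7 lower. vBM-MSCs differed from A-MSCs in 8 (25.6% of all genes), 6 of them higher and 2 lower (13.2% and 12.4% of all genes), of which 1 was lower without either vBM-MSC library or without A-MSC replicate 1 or 3. They differed from P-MSCs in 11 (38.7% of all genes), 10 of them higher and 1 lower (21% and 17.7% of all genes), with 2 lower without either vBM-MSC library or fBM-MSC replicate 1 and 3 lower with limma on log2(TPM + 1). Among the latter were 8 enzymes, all higher in vBM-MSCs.

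A-MSCs and P-MSCs, the non-bone marrow tissues, differed in 5 members, against 30.9% of all genes. Hsd17b7, Npc2, Ebp and Msmo1 were higher in A-MSCs and Pmvk was lower (16% and 14.9% of all genes). The call of Msmo1 (0.42, SE 0.13, adjusted p = 0.031) and that of Pmvk (-0.67, SE 0.21, adjusted p = 0.0292) were each lost in 5 of 16 alternatives, Msmo1 without A-MSC replicate 1 or 3 or P-MSC replicate 2 or 3, and Pmvk without any 1 A-MSC library or P-MSC replicate 1 or 2. The count was 3 without A-MSC replicate 1, A-MSC replicate 3 or P-MSC replicate 2. On log2(TPM + 1) with limma, the median of all genes in this comparison moved to -0.16, the share of calls that were higher in A-MSCs fell from 51.7% to 30.4%, and 3 members were higher and 3 lower.

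Other genes around the pathway were read from lists that hold no member, beside 24.8% of all tested genes higher in bone marrow and 22.4% lower. Of 8 partners in SREBP processing, 3 were higher in bone marrow and 0 lower, among them the protease gene Mbtps1, which cuts SREBP (0.69, SE 0.08, adjusted p = 3.65e-05), and Erlin2 (0.51, SE 0.10, adjusted p = 0.00139). The third, Rnf139 (0.37, SE 0.12, adjusted p = 0.0274), named after its values were seen, passed at neither site against A-MSCs (adjusted p = 0.589 for fBM-MSCs and 0.563 for vBM-MSCs) and was lowest in P-MSCs. Calls that also passed at both sites against both other tissues numbered 2 of 3 in this list, 3 of 8 in fatty acid synthesis, 2 of 8 in other sterol handling and 2 of 2 among users of isoprenoids. Over all tested genes they numbered 1508 of 5901. Of 13 tested genes of fatty acid synthesis, 3 were higher and 5 lower. Lpin1, a phosphatidate phosphatase (2.04, SE 0.27, adjusted p = 8.16e-05), and Acss2, an acetyl-CoA synthetase (0.79, SE 0.20, adjusted p = 0.00747), were higher, although Acss2 in neither bone marrow site differed from A-MSCs (adjusted p = 0.181 and 0.717 for fBM-MSCs and vBM-MSCs). The elongase Elovl6 (-0.97, SE 0.12, adjusted p = 5.34e-05) and the desaturase Fads2 (-0.94, SE 0.13, adjusted p = 0.000163) were lower, each through a single tissue. Elovl6 was at 9.41 to 10.98 TPM in P-MSCs and 2.20 to 3.19 TPM in all other libraries, and neither bone marrow site differed from A-MSCs (adjusted p = 0.793 and 0.55). Fads2 was at 8.38 to 14.2 TPM in fBM-MSCs and 25.6 to 36.8 TPM elsewhere, and vBM-MSCs differed from neither A-MSCs (adjusted p = 0.198) nor P-MSCs (adjusted p = 0.332). The 14 genes of other sterol handling split into 5 higher and 3 lower. The lipoprotein receptor Lrp1 (0.78, SE 0.18, adjusted p = 0.00421) and the sterol-binding Osbpl2 (0.76, SE 0.09, adjusted p = 2.75e-05) were higher, Lrp1 in vBM-MSCs without passing against P-MSCs (adjusted p = 0.66). Lrp8 (-0.86, SE 0.22, adjusted p = 0.00806) and Soat1 (-1.03, SE 0.12, adjusted p = 3.31e-05) were lower than the mean of A-MSCs and P-MSCs, of which 1 tissue was high. Lrp8 was at 1.94 to 3.06 TPM in P-MSCs, and neither bone marrow site differed from A-MSCs (adjusted p = 0.684 for fBM-MSCs and 0.234 for vBM-MSCs). Soat1 was high in A-MSCs, and neither site differed from P-MSCs (adjusted p = 0.199 and 0.792). Of 10 users of isoprenoids, 2 were lower and 0 higher, a share of lower genes near that of all genes. They were Pdss1 of coenzyme Q synthesis (-1.77, SE 0.21, adjusted p = 3.65e-05) and Rabggtb, a prenyltransferase subunit (-0.54, SE 0.08, adjusted p = 0.000286).

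**Figure D4:**
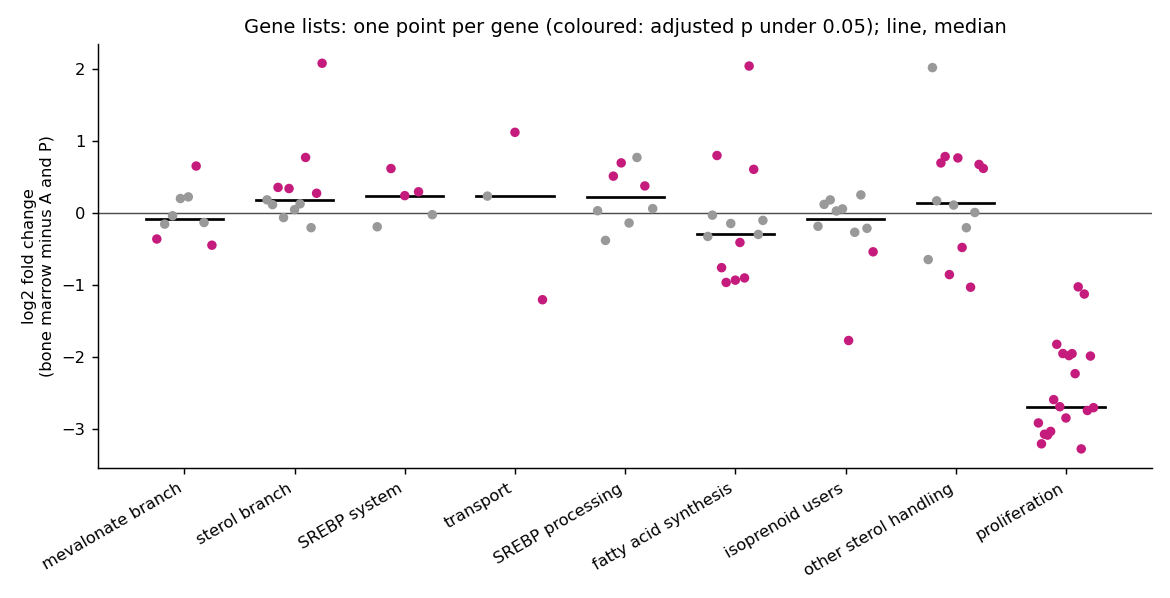
Log2 fold change of bone marrow over non-bone marrow MSCs for each gene of the 4 member groups and of 5 neighbouring lists, with the median as a line and genes with an adjusted p under 0.05 coloured. In the mevalonate branch and transport, coloured members lie on both sides of 0, in the sterol branch and the SREBP system all coloured members lie above 0, and the 19 proliferation genes all lie between -3.28 and -1.03.

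Open chromatin was then read at the promoters of the 25 members on the autosomes, since the peak lists analysed cover chromosomes 1 to 19 and Nsdhl and Ebp lie on X. A peak was counted where a summit with a −log10 q of at least 7 lay within 1000 bases of a start. All 25 had such a peak in vBM-MSCs, A-MSCs and P-MSCs, and 24 had one in fBM-MSCs, where the peak of Pmvk lay below that threshold. Among 11519 tested genes, the shares with a peak were 87.1% (fBM), 89% (vBM), 89.6% (A) and 88.8% (P). The median fold enrichment of the members' strongest summits over the genome background was 25.6, 32.7, 28 and 34.2 in the same order of tissues, against 14.3, 15.8, 16.2 and 16.9 over all genes with a peak. With 1 pooled list per tissue these differences have no replicate check.

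Each pooled list has its own scale, so promoter folds were divided by the median of the 9573 tested genes with a peak in every tissue, which was 15.1, 16.6, 17.3 and 18 in the order fBM, vBM, A and P. In that order, Idi1 stood at 2.24, 2.82, 2.32 and 2.06 times the median and Cyp51 at 1.37, 1.71, 1.43 and 1.27 times. Both were highest in vBM-MSCs, where their RNA was highest, and lowest in P-MSCs, where it was not lowest. On the log2 scale their vBM-MSC value exceeded that of fBM-MSCs by 0.33 each, within the SD of this difference over all genes (0.346). The other enzymes with more RNA in vBM-MSCs differed by less, Fdft1 by 0.30, Sqle by 0.11, Hmgcs1 by -0.05 and Msmo1 by -0.06. Stard4 was at 1.63 times the median in fBM-MSCs and at 2.29, 2.47 and 2.08 times in the others, a difference of vBM-MSCs from fBM-MSCs of 0.49. This exceeded the SD, as did the differences of Srebf2 (0.52), Tm7sf2 (0.41), Mvk (0.41) and, in the other direction, Insig2 (-0.47), whose RNA did not pass between the bone marrow sites. Npc2 was at 3.63, 3.09, 3.40 and 3.55 times, with a log2 difference of bone marrow from the others of -0.05 (SD over all genes 0.282). Tm7sf2 was below the median in every tissue, at 0.585, 0.778, 0.596 and 0.571 times. Srebf1 was at 0.634, 0.689, 0.979 and 1.02 times, with a log2 difference of bone marrow from the others of -0.60, while its RNA was higher in fBM-MSCs and not detectably so in vBM-MSCs. Its strongest fBM-MSC summit lay at another start than those of the other tissues.

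**Figure D5:**
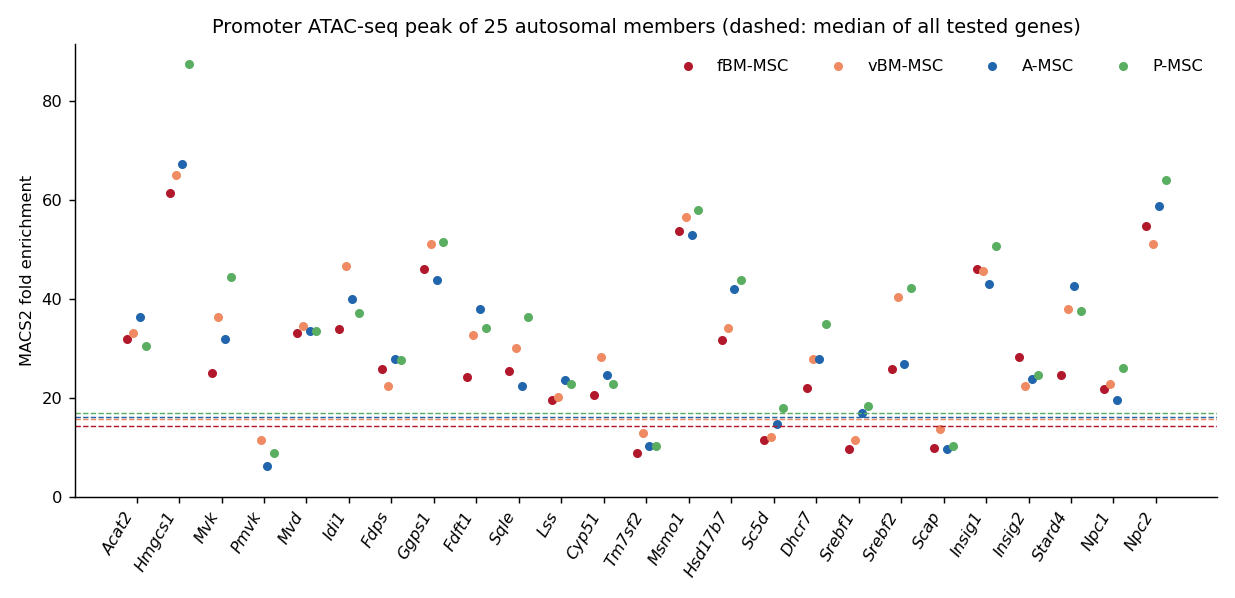
MACS2 fold enrichment, before division by the median, of the strongest promoter summit for the 25 autosomal members, 1 point per pooled tissue list, with dashed lines at the medians of all tested genes with a peak. Hmgcs1 has the highest values, from 61.4 to 87.5, and Tm7sf2, Scap and Pmvk lie below the dashed lines. Pmvk has no fBM-MSC point, since its peak there was below the threshold on q.

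Within 20 kb of the members, 119 regions were open in at least 1 tissue, and 49 of them in all 4 (41.2%, against 37.9% of 54429 regions within the same distance of all tested autosomal genes). Open here means a peak with a −log10 q of at least 7, so a weaker peak counts as absent. A single region was open in both bone marrow lists and in neither of the others, which is 0.84% against 3.13% near all tested genes. It lay in an intron of Insig2 at chr1:121323001-121324435, with a fold enrichment of 7.36 at both bone marrow sites, and its summit sequence is shown above. It was picked after these values were seen, and its enrichment was below that of the Insig2 promoter (28.3 in fBM-MSCs and 22.4 in vBM-MSCs). Regions open in A-MSCs and P-MSCs and in neither bone marrow list numbered 5, or 4.2% against 6.69%. These are counts from 1 list per tissue, with no test.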

How the data were processed

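RNA-seq used Smart-seq2, which is not strand-specific and has no molecular identifiers. The authors aligned paired reads to mm10 with STAR inside RSEM. The deposited expected count is an unnormalized estimate of the reads of a gene. The authors' TPM corrects it for transcript length and sets each library to the same sum. The deposited FPKM values and the deposited MACS2 score were not used. For ATAC-seq, the authors trimmed with Trim Galore, aligned with Bowtie, removed duplicates with Picard, shifted reads for Tn5, and called summits with MACS2 on pooled samples. The deposited fold enrichment is a ratio over the genome-wide background, and the deposited −log10 q belongs to each summit. Versions are not given in the sources used here.

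After rounding, expected counts entered the two-sided quasi-likelihood test of edgeR 4.0.16 (R 4.3.3), in 1 model with the 4 tissues as groups and TMM scaling. Genes needed a CPM of 1 or more in 2 libraries, and Benjamini-Hochberg adjustment ran over all 12509 genes with a threshold of 0.05. A log2 fold change compares group means in that model. Its SE is the absolute log2 fold change divided by the square root of the F statistic of the test. The edgeR test was also run on simulated counts, with an outcome that is not given here. The study's clustering software and ANOVA were not used. The study describes the replicates of a tissue as biological but ties no library to a mouse. The p-values measure the spread between libraries only. Every member is described. Of the other lists, at most 2 called genes per direction with the largest bone marrow difference are named. The rule for the members names genes by function and uses no measured value, but members and lists were chosen with earlier results of these data known. The alternatives were RLE scaling, DESeq2 1.42.0, no filter, a replicate block, limma 3.58.1 on log2(TPM + 1), bone marrow libraries only, and leaving out each library. RSEM split reads of Acat2, Fdft1, Npc1 and Lss with other genes, and exons of Fdft1, Lss, Srebf1 and Npc1 overlap a gene on the other strand, so these 5 are less certain. Figures used matplotlib 3.10.9.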

Additional observations from a re-analysis of the deposited data

How the results depend on the processing

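Of 69 calls of single members over 7 comparisons, 38 held under every alternative run and 0 changed sign. Total counts of members called, both directions together, stayed within 1.5 times the main count under every alternative, with these exceptions. Between fBM-MSCs and vBM-MSCs, the count of 8 was 2 in a fit of the bone marrow libraries alone and ranged from 3 to 9 when each library was left out. Between A-MSCs and P-MSCs, the count of 5 ranged from 3 to 7 when each library was left out. Where vBM-MSCs were left with 1 library, that library was assumed to vary like the other groups.

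No pairing of libraries by replicate number was detected: same-numbered libraries had residual correlations from -0.04 to 0.11, and 1 of 15 pairs exceeded 0.1. With so few libraries per tissue, this cannot exclude that a shared number marks a shared mouse. With the replicate number as a block, 19 members differed among the tissues, 11 between bone marrow and the others, 7 between fBM-MSCs and vBM-MSCs and 6 between A-MSCs and P-MSCs. The median of all genes moved by over 0.1 in 2 comparisons with limma on log2(TPM + 1), from -0.01 to -0.16 for A-MSCs over P-MSCs and from 0.02 to -0.10 for fBM-MSCs over P-MSCs, and under no other scaling. The number of libraries limits the comparisons with vBM-MSCs, and pooled peak lists allow no test.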

Other observations

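Soat1 and Ch25h, from the list of other sterol handling, were highest in A-MSCs. Soat1, which esterifies cholesterol for storage, was at 198, 216 and 246 TPM in A-MSCs and between 47.2 and 74.2 TPM in the other 8 libraries, and A-MSCs exceeded P-MSCs by 1.88 on the log2 scale (SE 0.16, adjusted p = 1.93e-05, edgeR). Ch25h, which makes 25-hydroxycholesterol, was named after its values were seen. It was at 122, 143 and 136 TPM in A-MSCs, at 6.82, 12.1 and 9.82 TPM in P-MSCs and at 7.99 and 17.7 TPM in vBM-MSCs. The fBM-MSC libraries spread widely in Ch25h, at 70.3, 42.0 and 10.4 TPM. A-MSCs exceeded P-MSCs by 4.01 (SE 0.56, adjusted p = 0.000474).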
